A study of Homo sapiens with 12 samples.

Results

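The expression of SU-DHL4, a line of germinal-centre-type diffuse large B-cell lymphoma, was set against 2 other B-cell lymphoma lines, SU-DHL6 and Namalwa. SU-DHL6 is also a germinal-centre-type diffuse large B-cell lymphoma line, and Namalwa is a Burkitt lymphoma line. The comparison rests on the 2 arrays titled SU-DHL4 and the 4 arrays titled SU-DHL6 or Namalwa, out of 12 arrays in the series, and the quantity given first is the SU-DHL4 mean minus the mean of the 2 other line means. The remaining 6 arrays carried the Hodgkin lymphoma lines KM-H2, L1236 and L428, whose levels are given as a range of 3 line means. All lines were untreated and were grown in RPMI medium with fetal bovine serum. Each group is a single established line, so a difference between SU-DHL4 and another line need not hold for other tumours of its type. SU-DHL4 and SU-DHL6 belong to the newly generated part of the series and Namalwa to an earlier published part, so for SU-DHL4 against Namalwa the line and the dataset cannot be told apart. SU-DHL4 against SU-DHL6 is free of that limit, and its values are given beside the main results.

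Germinal-centre-type lymphoma cells resemble the B cells that divide, mutate their immunoglobulin genes and are selected in the germinal centre. Such cells depend on the transcriptional repressor BCL6, display an immunoglobulin on the surface as the B-cell receptor, and present peptides to T cells on MHC class I and class II molecules. Leaving the germinal centre for the plasma cell state requires IRF4, PRDM1 and XBP1, and NF-kB activity is the mark of the activated-B-cell type of the same lymphoma.

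Values are log2 RMA signals, in which 1 unit is a 2-fold difference. Array medians were alike, from 6.85 to 6.92, and the lower quartile of the arrays ran from 5.64 to 5.75, a level at which a transcript may not have been detected at all. Folds that reach into that range may be understated. The duplicates of SU-DHL4 agreed at r = 0.992 over probe sets, with 79 probe sets over 2-fold apart. SU-DHL6 was the less even pair (r = 0.981, 465 probe sets, 2.09%), and its replicate 2 stood apart from the other arrays in the 3' minus 5' difference of GAPDH (0.47, against -0.09 to 0.16), a sign of RNA quality whose part in the results was not tested. List counts against the mean were therefore repeated without that array and are given where they differed.

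B-cell markers were high in SU-DHL4. MS4A1, which encodes CD20, had 12.69 and 12.77 on the SU-DHL4 arrays, against 12.78 and 11.56 in SU-DHL6 and 11.23 and 10.83 in Namalwa. CD79A and CD79B, which carry the receptor's signalling motifs, averaged 11.9 and 10.3 in SU-DHL4, and PAX5, the factor that holds B-cell identity, averaged 9.81. None of these 3 was called against SU-DHL6, the differences being -0.52, -0.43 and -0.13. BCL6 was at 11.24 and 11.66 in SU-DHL4, against 10.82 and 11.03 in SU-DHL6 and 10.69 and 10.58 in Namalwa, and the 3 Hodgkin line means did not pass 7.91. LMO2, another germinal-centre marker, was near the lower quartile in SU-DHL4 (6.55 and 5.84) and Namalwa (5.64 and 5.77) and higher in SU-DHL6 (8.01 and 8.78).

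A gene was called when limma's adjusted p was under 0.05 over all 22215 probe sets and the log2 difference was at least 1 in size. Of 11963 genes, 450 (3.76%) were called against the mean of the other B-cell lines, 226 higher (1.89%) and 224 lower (1.87%) in SU-DHL4. Against SU-DHL6 alone the count was 658 (5.5%), with 357 higher (2.98%) and 301 lower (2.52%). Which direction held more genes turned with a single SU-DHL6 array, since 370 were higher and 409 lower without replicate 1 and 431 were higher and 269 lower without replicate 2. Against Namalwa alone it was 574 (4.8%), with 281 higher (2.35%) and 293 lower (2.45%). These single-line comparisons share the SU-DHL4 arrays. A gene that was called against each line with the same sign is said below to stand apart, and its p is the larger of the 2 adjusted p-values. There were 207 such genes (1.73%), 111 higher (0.928%) and 96 lower (0.802%). Of the 226 genes called higher against the mean, 111 stood apart, 67 passed against SU-DHL6 only and 48 against Namalwa only. For the 224 called lower the split was 96, 55 and 73. The median difference of all genes was -0.05 against the mean, so lists below are read beside that value. At an unadjusted limma p under 0.05 of any size, 13.0% of all genes were higher and 15.8% lower than the mean. List counts at that level are read beside these shares. Duplicates may be technical, and the p-values then speak only of array-to-array spread within a line.

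**Figure D1:**
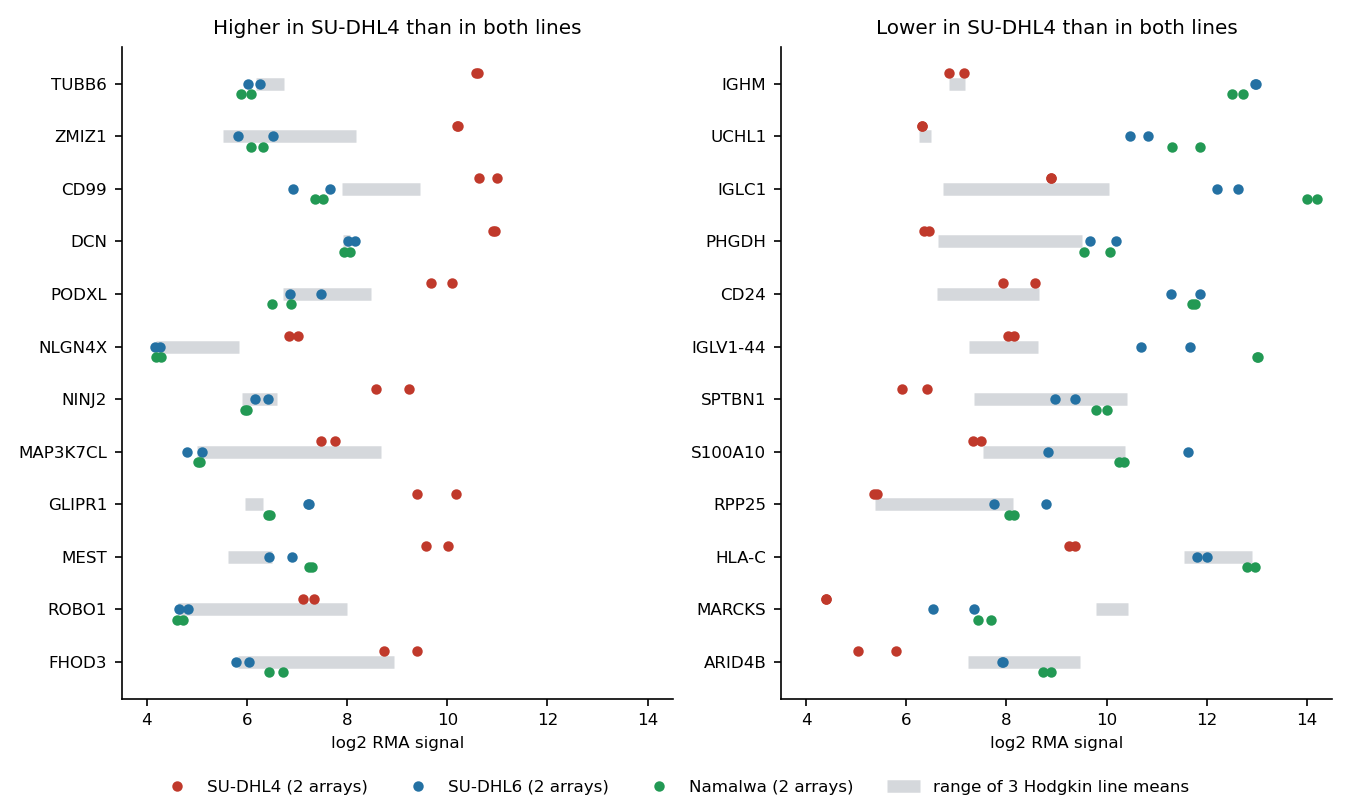
Log2 RMA signal (horizontal axis) on each of 2 arrays of SU-DHL4, SU-DHL6 and Namalwa for the 12 genes highest (left) and the 12 lowest (right) among those that stood apart, XIST and Y-linked genes left out, with a grey bar for the range of the 3 Hodgkin line means. For every gene shown, both SU-DHL4 points lie outside the points of the other B-cell lines, as the choice of genes requires. MARCKS is the gene furthest below its grey bar.

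Among the genes named here, TUBB6, ZMIZ1 and CD99 stood highest over both lines. TUBB6, a beta-tubulin of the microtubule, had 10.57 and 10.61 on the SU-DHL4 arrays, against 6.03 and 6.27 in SU-DHL6 and 5.88 and 6.08 in Namalwa. The Hodgkin line means were also low at 6.18 to 6.73. The difference from the mean was 4.53 ± 0.10 (SE), a 23.0-fold level (adjusted p = 1.09e-08). ZMIZ1, a transcriptional coactivator related to the PIAS family, had 10.20 and 10.21 in SU-DHL4, against 5.81 and 6.51 in SU-DHL6 and 6.33 and 6.08 in Namalwa. Its difference was 4.02 ± 0.18 (16.2-fold, adjusted p = 1.23e-06), and among the Hodgkin lines it reached 8.18. CD99, a surface glycoprotein of leukocytes and other cells, had 10.62 and 10.99 in SU-DHL4, against 7.65 and 6.93 in SU-DHL6 and 7.36 and 7.51 in Namalwa. It was 10.9-fold higher (3.44 ± 0.19, adjusted p = 3.48e-06), on 2 of 2 probe sets. Against SU-DHL6 alone the differences were 4.44 for TUBB6, 4.04 for ZMIZ1 and 3.51 for CD99.

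DCN, PODXL, NINJ2, ROBO1 and NLGN4X were also among the 12 highest. DCN, the matrix proteoglycan decorin, had 10.96 and 10.91 in SU-DHL4, against 8.02 and 8.17 in SU-DHL6 and 8.06 and 7.94 in Namalwa. Its 4 probe sets were all called, and the chosen one differed by 2.89 ± 0.08 (7.42-fold, adjusted p = 4.64e-08). The arrays of all 5 other lines, Hodgkin lines included, lay between 7.91 and 8.17. PODXL, the sialomucin podocalyxin, had 9.67 and 10.09 in SU-DHL4, against 6.85 and 7.47 in SU-DHL6 and 6.49 and 6.88 in Namalwa (2.95 ± 0.19, adjusted p = 9.5e-06). NINJ2, an adhesion protein first described in nerve, had 8.57 and 9.24 in SU-DHL4, against 6.16 and 6.43 in SU-DHL6 and 6.0 and 5.95 in Namalwa (2.77 ± 0.17, adjusted p = 7.64e-06). ROBO1, a receptor for SLIT guidance cues, had 7.12 and 7.35 in SU-DHL4 and 4.61 to 4.82 in the other B-cell lines (2.54 ± 0.10, adjusted p = 4.82e-07), with Hodgkin lines up to 7.99. NLGN4X, a neuroligin of the synapse, had 7.01 and 6.84 in SU-DHL4 and 4.17 to 4.29 in the others, which is below the lower quartile, so its 6.48-fold difference may be understated.

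The remaining 4 of the 12 highest genes have varied roles. MEST, an imprinted gene for a hydrolase-like protein, had 9.58 and 10.02 in SU-DHL4, against 6.45 and 6.90 in SU-DHL6 and 7.31 and 7.24 in Namalwa (2.83 ± 0.16, adjusted p = 3.98e-06). GLIPR1, first described in glioma, had 9.40 and 10.18 in SU-DHL4, against 7.24 and 7.22 in SU-DHL6 and 6.43 and 6.46 in Namalwa, and 3 of 3 probe sets were called. FHOD3, a formin that assembles actin filaments, had 8.74 and 9.40 in SU-DHL4, against 5.77 and 6.04 in SU-DHL6 and 6.72 and 6.43 in Namalwa. MAP3K7CL had 7.48 and 7.75 in SU-DHL4 and 4.80 to 5.10 in the other B-cell lines. Among the Hodgkin lines it averaged 8.67 in L428, 5.00 in KM-H2 and 5.03 in L1236. Of the 111 genes that stood apart as higher, 88 were also above all 3 Hodgkin line means, 21 lay within their range and 2 below it.

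The lowest genes were led by the immunoglobulin mu chain and by UCHL1. IGHM had 7.15 and 6.85 on the SU-DHL4 arrays, against 12.98 and 12.97 in SU-DHL6 and 12.50 and 12.71 in Namalwa. The difference was -5.79 ± 0.11 (55.3-fold, adjusted p = 1.86e-09), and the SU-DHL4 level lay in the Hodgkin range of 6.85 to 7.17. Only 2 of the 5 IGHM probe sets stood apart, and with all averaged the difference was -2.78. UCHL1, a deubiquitinase abundant in neurons and in many B-cell lymphomas, had 6.32 on both SU-DHL4 arrays, against 10.83 and 10.47 in SU-DHL6 and 11.30 and 11.86 in Namalwa. It was 27.8-fold lower (-4.80 ± 0.16, adjusted p = 1.49e-07), and the Hodgkin lines were equally low at 6.25 to 6.50. PHGDH, which commits a glycolytic intermediate to serine synthesis, had 6.35 and 6.46 in SU-DHL4, against 9.68 and 10.19 in SU-DHL6 and 9.55 and 10.07 in Namalwa. It was 11.1-fold lower (-3.47 ± 0.18, adjusted p = 3.14e-06), and SU-DHL4 was below all 5 other line means. Against SU-DHL6 alone the differences were -5.97 for IGHM, -4.33 for UCHL1 and -3.53 for PHGDH.

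CD24, a small glycosylated surface protein of B cells, had 7.93 and 8.57 in SU-DHL4, against 11.30 and 11.87 in SU-DHL6 and 11.77 and 11.71 in Namalwa. All 6 of its probe sets were called lower, the chosen one by 10.6-fold (-3.41 ± 0.25, adjusted p = 2.46e-05). MARCKS, a membrane-bound substrate of protein kinase C, had 4.41 and 4.39 in SU-DHL4, against 7.36 and 6.54 in SU-DHL6 and 7.44 and 7.70 in Namalwa (-2.86 ± 0.26, adjusted p = 9.06e-05). In the Hodgkin lines it lay at 9.79 to 10.43, and 2 of its 4 probe sets were called. ARID4B, a chromatin-binding protein, had 5.03 and 5.81 in SU-DHL4, against 7.92 and 7.94 in SU-DHL6 and 8.89 and 8.73 in Namalwa (-2.95 ± 0.17, adjusted p = 5.64e-06). RPP25, a subunit of ribonuclease P, had 5.36 and 5.43 in SU-DHL4, against 8.79 and 7.74 in SU-DHL6 and 8.15 and 8.05 in Namalwa.

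S100A10 and SPTBN1 were among the 12 lowest genes that did not keep the call in all settings. S100A10, the partner of annexin A2, had 7.33 and 7.49 in SU-DHL4, against 8.83 and 11.63 in SU-DHL6 and 10.25 and 10.35 in Namalwa. The SU-DHL6 duplicates thus differed by more than 2 units, and the difference from the mean (-2.86 ± 0.56, adjusted p = 0.00732) missed the threshold without either SU-DHL4 array or with the B-cell arrays alone (highest adjusted p = 0.0657, lowest 9.04e-08 over the alternatives). Its standing apart was also lost without either Namalwa array. SPTBN1, a beta-spectrin of the membrane skeleton, had 5.92 and 6.42 in SU-DHL4, against 8.96 and 9.36 in SU-DHL6 and 9.80 and 10.00 in Namalwa. Only 2 of its 6 probe sets were called, and with all 6 averaged the difference was -0.96 in place of -3.36. Of the 96 genes that stood apart as lower, 62 were also below all 3 Hodgkin line means, 28 lay within their range and 6 above it.

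Immunoglobulin transcripts separated SU-DHL4 by chain. Of 10 measured genes of the immunoglobulin list, 5 were lower against the mean and 0 higher, 4 of them against each line (median -0.69, against -0.05 over all genes). At an unadjusted p under 0.05, 1 was higher and 6 lower (10% and 60%, beside 13.0% and 15.8% of all genes). Against SU-DHL6 alone 0 were called higher and 4 lower. IGLC1, a lambda light-chain constant region, had 8.90 on both SU-DHL4 arrays, against 12.20 and 12.63 in SU-DHL6 and 14.19 and 14.0 in Namalwa (-4.36 ± 0.32, adjusted p = 2.46e-05). Of its 6 probe sets 2 were called, and the value of SU-DHL4 lay within the Hodgkin range of 6.73 to 10.06. IGLV1-44, a lambda variable region, had 8.15 and 8.03 in SU-DHL4, against 10.69 and 11.67 in SU-DHL6 and 12.99 and 13.02 in Namalwa, but with its 5 probe sets averaged the difference was -0.91 in place of -4.0. IGHD, the delta chain, had 6.52 and 6.58 in SU-DHL4, against 7.91 and 7.27 in SU-DHL6 and 7.86 and 7.82 in Namalwa (-1.16, adjusted p = 0.000807), and no longer stood apart after a repeated quantile normalization or without SU-DHL6 replicate 1 (adjusted p 9.63e-06 to 0.0328, with a gap under 1 in those settings). Another IGHD probe set was lower by more, with 5.91 and 5.65 in SU-DHL4, against 8.87 and 9.41 in SU-DHL6 and 8.54 and 8.52 in Namalwa (-3.06).

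Kappa light-chain probe sets that reached 9 in a B-cell line were not lower in this way. Only 2 of the 8 IGKC probe sets, the 2 given here, lay above the mean of the other lines. Over the alternatives the IGKC difference from the mean ran from 0.12 to 0.90. The chosen IGKC probe set had 9.84 and 10.28 in SU-DHL4, against 10.52 and 10.43 in SU-DHL6 and 8.38 and 8.16 in Namalwa, a difference of 1.78 from Namalwa (adjusted p = 6.9e-05) and of -0.42 from SU-DHL6 (adjusted p = 0.113). A second IGKC probe set was higher than in both lines, with 9.15 and 9.99 in SU-DHL4, against 7.19 and 6.97 in SU-DHL6 and 8.51 and 7.76 in Namalwa (1.96 against the mean). A brighter kappa probe set, which matches more than 1 symbol, had 13.03 and 13.47 in SU-DHL4, against 13.47 and 13.52 in SU-DHL6 and 11.21 and 10.87 in Namalwa. A further heavy-chain probe set, which matches mu and gamma chain genes and can be named for none, had 10.99 and 11.36 in SU-DHL4, against 10.60 and 10.80 in SU-DHL6 and 6.80 and 7.11 in Namalwa. IGHG1, on its own probe set, was at 6.89 and 6.72 in SU-DHL4, level with every other line. A probe set that is level in all lines may not report its transcript. VPREB1, of the surrogate light chain, had 5.34 and 5.78 in SU-DHL4 and 5.41 and 5.43 in SU-DHL6, against 8.44 and 8.56 in Namalwa. Immunoglobulin probe sets share sequence with one another, so a signal on one of them may come from a related chain.

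**Figure D2:**
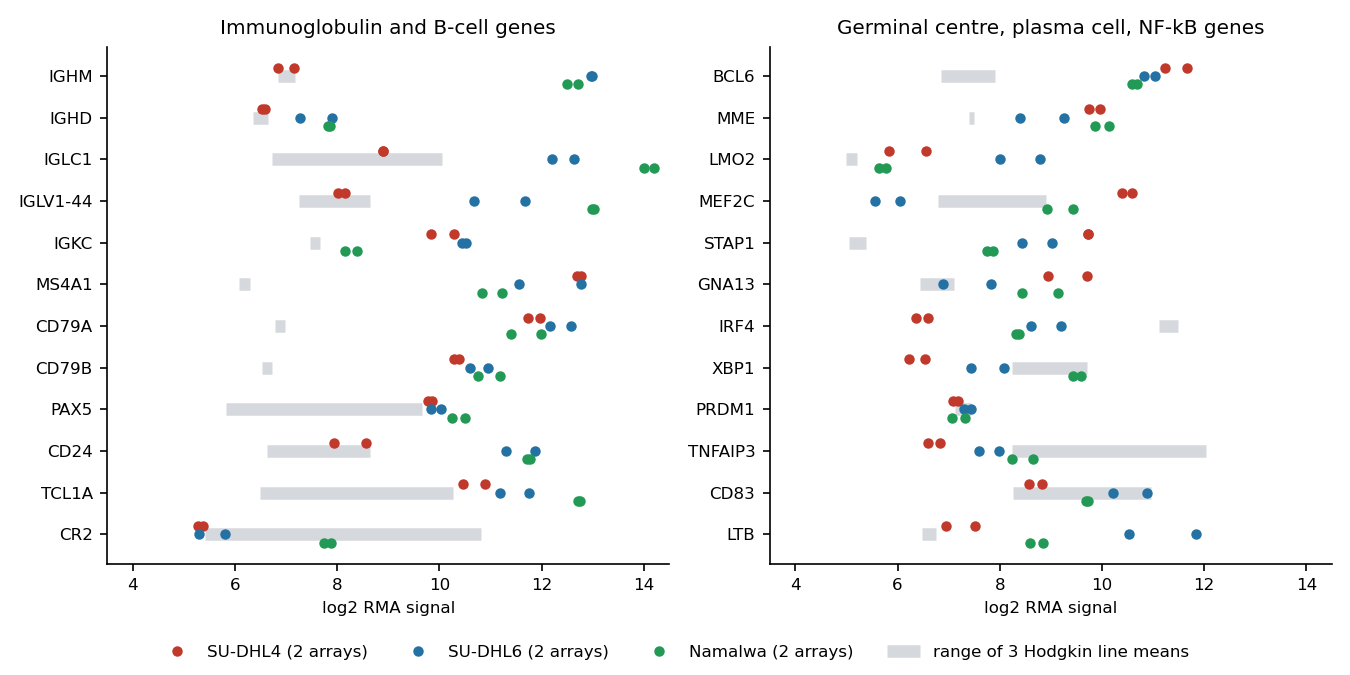
Log2 RMA signal (horizontal axis) on each array for 12 immunoglobulin and B-cell genes (left) and 12 genes of the germinal centre, plasma cell and NF-kB lists (right), with a grey bar for the range of the 3 Hodgkin line means. CD79A, CD79B and PAX5 are high in all 3 B-cell lines, whereas IGHM, IGLC1 and CD24 are low in SU-DHL4 alone of these.

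Most B-cell identity genes differed by less than the size needed for a call. Of 22 measured, 2 were called higher (MS4A1 and BLK) and 3 lower (CD24, TCL1A and CR2) against the mean, with a median of -0.29. At an unadjusted p under 0.05 of any size 5 were higher and 10 lower (22.7% and 45.5%, beside 13.0% and 15.8% of all genes). Against SU-DHL6 alone 1 was called higher and 2 lower. Without SU-DHL6 replicate 2 the called counts against the mean were 1 and 3. TCL1A, an AKT coactivator of immature and germinal-centre B cells, had 10.46 and 10.90 in SU-DHL4, against 11.75 and 11.19 in SU-DHL6 and 12.74 and 12.72 in Namalwa (-1.42, adjusted p = 0.000375). CR2, the complement receptor CD21, had 5.27 and 5.37 in SU-DHL4 and 5.30 and 5.80 in SU-DHL6, against 7.73 and 7.87 in Namalwa. The call for MS4A1 (1.13, adjusted p = 0.0295) was lost in 6 alternatives, among them those without SU-DHL4 replicate 1, SU-DHL4 replicate 2, SU-DHL6 replicate 2 or Namalwa replicate 2 (adjusted p 0.000718 to 0.176). BLK, a SRC-family kinase of B cells named here after its values were seen, had 10.07 and 9.78 in SU-DHL4, against 7.79 and 8.15 in SU-DHL6 and 9.55 and 9.69 in Namalwa.

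Among 23 measured genes of B-cell receptor signalling, 2 were higher and 2 lower against the mean (median 0.07), and against SU-DHL6 alone 2 were higher and 3 lower. RASGRP1, an exchange factor that loads RAS with GTP and is best known from T cells, had 7.66 and 8.0 in SU-DHL4, against 4.90 and 5.67 in SU-DHL6 and 6.26 and 5.59 in Namalwa (2.22 ± 0.26, adjusted p = 0.000351). PRKCB, the protein kinase C that links the receptor to NF-kB, had 6.81 and 6.75 in SU-DHL4, against 7.81 and 8.46 in SU-DHL6 and 9.83 and 9.69 in Namalwa (-2.17 ± 0.20, adjusted p = 1e-04), and 2 of 2 probe sets were called. RASGRP1 and PRKCB both stood apart. BANK1, a B-cell scaffold protein, was higher than in SU-DHL6 (7.60 and 8.0, against 5.0 and 5.17) and level with Namalwa (8.03 and 7.14). PTPN6, the phosphatase SHP-1 that restrains the receptor, had 6.38 and 5.93 in SU-DHL4, against 7.89 and 7.04 in SU-DHL6 and 7.08 and 7.07 in Namalwa (-1.11, adjusted p = 0.00646), and its call was lost without SU-DHL4 replicate 2 or SU-DHL6 replicate 1 and with the B-cell arrays alone (adjusted p 0.000286 to 0.0891).

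Germinal-centre genes held calls in both directions. Of 16 measured, 3 were called higher (MEF2C, STAP1 and GNA13) and 1 lower (SMAD1) against the mean, and the list median was 0.55. Against SU-DHL6 alone 4 were higher and 2 lower. The counts were the same without SU-DHL6 replicate 2, where 2 stood apart in place of 1, and at an unadjusted p under 0.05 of any size 9 were higher and 4 lower, beside 13.0% and 15.8% of all genes. MEF2C, a transcription factor of germinal-centre B cells, had 10.39 and 10.59 in SU-DHL4, against 5.55 and 6.04 in SU-DHL6 and 9.44 and 8.92 in Namalwa. It stood apart (difference from the mean 3.0 ± 0.16, adjusted p = 3.6e-06), with a gap of 4.69 from SU-DHL6 and of 1.31 from Namalwa, and 3 of 3 probe sets were called. STAP1, an adaptor of B-cell tyrosine kinases, had 9.73 and 9.72 in SU-DHL4, against 8.44 and 9.03 in SU-DHL6 and 7.76 and 7.86 in Namalwa (1.45, adjusted p = 0.000336).

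GNA13, a G-protein subunit that confines germinal-centre B cells, had 8.95 and 9.71 in SU-DHL4, against 7.83 and 6.89 in SU-DHL6 and 9.13 and 8.43 in Namalwa. It overlapped with Namalwa, and its call (1.26, adjusted p = 0.028) was lost in 4 alternatives, among them those without SU-DHL4 replicate 2 or Namalwa replicate 2 (adjusted p 0.00694 to 0.276). SMAD1, a transducer of BMP signals, was at 5.60 and 5.45 in SU-DHL4 and 6.13 and 5.92 in SU-DHL6, against 9.72 and 9.92 in Namalwa. MME, the CD10 antigen, had 9.75 and 9.96 in SU-DHL4, against 8.40 and 9.25 in SU-DHL6 and 9.87 and 10.14 in Namalwa, and passed against SU-DHL6 (1.03, adjusted p = 0.0263). EZH2, CREBBP and BCL2 were not called against the mean, at 0.46 or less in size. The chosen BCL2 probe set, 1 of 4, averaged 7.01 in SU-DHL4, 6.98 in SU-DHL6 and 6.75 in Namalwa. It was also level in the Hodgkin lines (7.01 to 7.17) and may not report the transcript.

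Genes of the plasma cell and activated-B-cell lists were lower where they were called. Of 16 plasma cell genes, 3 were lower and 0 higher against the mean (median -0.16), and of 16 activated-B-cell-like genes 2 were lower and 0 higher (median -0.24). At an unadjusted p under 0.05, 2 were higher and 6 lower in each list (12.5% and 37.5%, beside 13.0% and 15.8% of all genes). Without SU-DHL6 replicate 2, and likewise against SU-DHL6 alone, 3 genes were lower and 0 higher in each list. XBP1, the factor that expands the secretory apparatus, had 6.54 and 6.23 in SU-DHL4, against 8.09 and 7.43 in SU-DHL6 and 9.44 and 9.58 in Namalwa (-2.25 ± 0.18, adjusted p = 3.8e-05). IRF4 had 6.59 and 6.37 in SU-DHL4, against 9.20 and 8.61 in SU-DHL6 and 8.38 and 8.31 in Namalwa (-2.15 ± 0.16, adjusted p = 2.39e-05), while the Hodgkin line means lay at 11.11 to 11.48. Only 1 of 3 IRF4 probe sets was called, and averaged over them the difference was -0.75.

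PRDM1, the repressor that ends the B-cell programme, was at 7.09 and 7.18 in SU-DHL4 and 7.06 to 7.44 in the other B-cell lines and was not called. Its only probe set was also level in the Hodgkin lines (7.12 to 7.44) and may not report the transcript. CREB3L2, a factor of the secretory pathway, had 5.72 and 5.94 in SU-DHL4 and 5.88 and 5.94 in SU-DHL6, against 8.42 and 8.54 in Namalwa. PIM1, a survival kinase of the activated-B-cell list, had 7.33 and 7.43 in SU-DHL4, against 9.14 and 9.28 in SU-DHL6 and 7.97 and 8.19 in Namalwa (-1.27, adjusted p = 8.19e-05). Secretory pathway and unfolded-protein genes, 28 of them measured, had 0 calls against the mean in limma and a median of -0.26. At an unadjusted p under 0.05, 6 were higher and 12 lower (21.4% and 42.9%, beside 13.0% and 15.8% of all genes).

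Among 25 measured NF-kB subunits and targets, 5 were lower against the mean and 0 higher, 3 of them against each line, and the median was -0.50. At an unadjusted p under 0.05 of any size, 3 were higher and 17 lower (68% of the list, beside 15.8% of all genes). Against SU-DHL6 alone 7 were lower and 0 higher. Without SU-DHL6 replicate 2, 6 were lower than the mean and 0 higher. TNFAIP3, the A20 enzyme that damps NF-kB and is itself induced by it, had 6.83 and 6.60 in SU-DHL4, against 7.98 and 7.60 in SU-DHL6 and 8.64 and 8.23 in Namalwa (-1.40 ± 0.15, adjusted p = 0.000262). CD83, an activation antigen, had 8.82 and 8.57 in SU-DHL4, against 10.22 and 10.89 in SU-DHL6 and 9.69 and 9.72 in Namalwa (-1.43 ± 0.16, adjusted p = 0.00026). LTB, the membrane ligand lymphotoxin beta, had 7.51 and 6.96 in SU-DHL4, against 11.85 and 10.52 in SU-DHL6 and 8.84 and 8.60 in Namalwa (-2.72 ± 0.30, adjusted p = 0.000262).

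The standing apart of these 3 genes depended on the setting. It was lost for TNFAIP3 without SU-DHL4 replicate 2 or SU-DHL6 replicate 1 and with its probe sets averaged (adjusted p 0.000924 to 0.0278, the gap being under 1). For CD83 it was lost without SU-DHL4 replicate 2 or Namalwa replicate 2, with the B-cell arrays alone and with arrays centred on the median (adjusted p 0.000145 to 0.0505). For LTB it was lost without SU-DHL4 replicate 2 or either Namalwa array and with the B-cell arrays alone (adjusted p 0.000315 to 0.129). CCL4, a chemokine induced by the B-cell receptor, had 6.87 on both SU-DHL4 arrays and 6.53 and 6.94 in SU-DHL6, against 10.11 and 10.25 in Namalwa. NFKBIE, an inhibitor of NF-kB named here after its values were seen, had 7.73 and 7.70 in SU-DHL4, against 9.0 on both SU-DHL6 arrays and 8.48 and 8.49 in Namalwa.

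The classical MHC class I chains were lower in SU-DHL4 than in every other line of the series. Class I molecules display peptides of intracellular proteins, with a polymorphic heavy chain on the invariant B2M. Of 15 measured genes of class I and its peptide supply, 7 were lower against the mean and 0 higher, and 5 stood apart, beside 1.87% and 0.802% of all genes. At an unadjusted p under 0.05 of any size 2 were higher and 11 lower (13.3% and 73.3%, beside 13.0% and 15.8% of all genes), and the list median was -0.51. Without SU-DHL6 replicate 2 the count against the mean was again 7, and 3 stood apart. Against SU-DHL6 alone 7 were lower and 0 higher, with -2.27 for HLA-B and -2.59 for HLA-C. HLA-B had 9.59 and 9.38 in SU-DHL4, against 11.56 and 11.95 in SU-DHL6 and 13.14 and 13.05 in Namalwa (-2.94 ± 0.12, 7.68-fold lower, adjusted p = 4.82e-07). HLA-C had 9.25 and 9.37 in SU-DHL4, against 12 and 11.80 in SU-DHL6 and 12.81 and 12.96 in Namalwa (-3.08 ± 0.10, 8.47-fold lower, adjusted p = 1.73e-07). All 3 HLA-B and all 4 HLA-C probe sets were called, and the lowest Hodgkin line means were 11.58 and 11.55.

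The nonclassical chains were lower by less. HLA-E had 8.84 and 8.37 in SU-DHL4, against 10.52 and 11.03 in SU-DHL6 and 9.44 and 9.68 in Namalwa (-1.56, adjusted p = 0.000351). HLA-G had 9.89 and 9.69 in SU-DHL4, against 10.84 and 10.98 in SU-DHL6 and 11.52 and 11.40 in Namalwa (-1.39, adjusted p = 4.47e-05). Probe sets of HLA genes can bind transcripts of more than 1 of them, so HLA-G signal may belong to HLA-B or HLA-C, and the lines' alleles may differ from the probes.

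B2M itself was close to level, with 12.27 and 12.34 in SU-DHL4, against 12.36 and 12.16 in SU-DHL6 and 12.78 and 12.90 in Namalwa (-0.24, adjusted p = 0.103). The other called members, named here after their values were seen, were HLA-F and 2 genes of peptide supply. HLA-F had 8.91 and 8.72 in SU-DHL4, against 9.79 and 9.97 in SU-DHL6 and 10.26 and 10.39 in Namalwa (-1.29, adjusted p = 7.84e-05). PSME1, a proteasome activator subunit, had 9.54 and 9.85 in SU-DHL4, against 10.69 and 10.81 in SU-DHL6 and 10.99 and 11.09 in Namalwa (-1.20, adjusted p = 8.92e-05). PSMB10, a subunit of the immunoproteasome, had 8.42 and 8.15 in SU-DHL4, against 9.93 and 9.33 in SU-DHL6 and 8.87 and 9.11 in Namalwa (-1.03, adjusted p = 0.00222). TAP1, a chain of the peptide transporter, was at 7.86 and 7.70 in SU-DHL4 and 7.71 on both SU-DHL6 arrays, against 8.64 and 8.83 in Namalwa, and its partner TAP2 was not lower in SU-DHL4 (0.61 against the mean).

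The promoters of HLA-B and HLA-C, the chains with the largest differences, of HLA-F and of B2M, which was not called, are shown so that their shared and differing letters can be compared. Each is the 250 bases before the transcript start in RefSeq, build GRCh38.p14, read 5' to 3' on the gene's strand: HLA-B at chr6:31357180-31357429 (minus), HLA-C at chr6:31272093-31272342 (minus), HLA-F at chr6:29723184-29723433 (plus) and B2M at chr15:44711267-44711516 (plus). Capitals mark matches, on either strand, to GGGGATTC (an NF-kB-type motif), GTTTCNCTT (an interferon-response type), TGACG (a CRE core) and ATTGG (an inverted CCAAT box), which were chosen from general knowledge of class I promoters after these sequences had been read.
HLA-B: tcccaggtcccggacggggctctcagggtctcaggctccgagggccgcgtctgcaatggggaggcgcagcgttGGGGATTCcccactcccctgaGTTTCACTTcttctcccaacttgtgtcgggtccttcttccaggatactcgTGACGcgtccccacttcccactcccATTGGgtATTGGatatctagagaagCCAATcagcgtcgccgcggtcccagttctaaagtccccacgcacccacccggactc
HLA-C: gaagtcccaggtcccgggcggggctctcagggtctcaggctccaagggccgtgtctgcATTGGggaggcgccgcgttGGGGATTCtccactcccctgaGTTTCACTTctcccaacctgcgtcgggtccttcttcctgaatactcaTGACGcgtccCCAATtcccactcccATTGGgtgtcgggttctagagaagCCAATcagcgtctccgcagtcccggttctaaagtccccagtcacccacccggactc
HLA-F: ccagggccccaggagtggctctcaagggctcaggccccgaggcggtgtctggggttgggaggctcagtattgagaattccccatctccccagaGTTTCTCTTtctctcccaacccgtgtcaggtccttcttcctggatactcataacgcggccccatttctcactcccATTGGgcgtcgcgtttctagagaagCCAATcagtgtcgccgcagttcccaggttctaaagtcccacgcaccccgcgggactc
B2M: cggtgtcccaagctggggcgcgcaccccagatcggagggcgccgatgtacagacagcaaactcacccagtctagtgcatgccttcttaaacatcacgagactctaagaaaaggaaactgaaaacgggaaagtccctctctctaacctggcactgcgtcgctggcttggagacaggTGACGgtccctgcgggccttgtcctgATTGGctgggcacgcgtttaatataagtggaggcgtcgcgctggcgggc
The reference letters are those of the genome build and not of the cell lines. HLA-B and HLA-C held all 4 motifs, HLA-F held GTTTCNCTT and ATTGG, and B2M held TGACG and ATTGG. Over 35116 RefSeq promoter windows of the same length, GGGGATTC occurred in 0.772%, GTTTCNCTT in 1.28%, TGACG in 21.2% and ATTGG in 32.0%. A match describes letters only, and no binding was measured here.

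**Figure D3:**
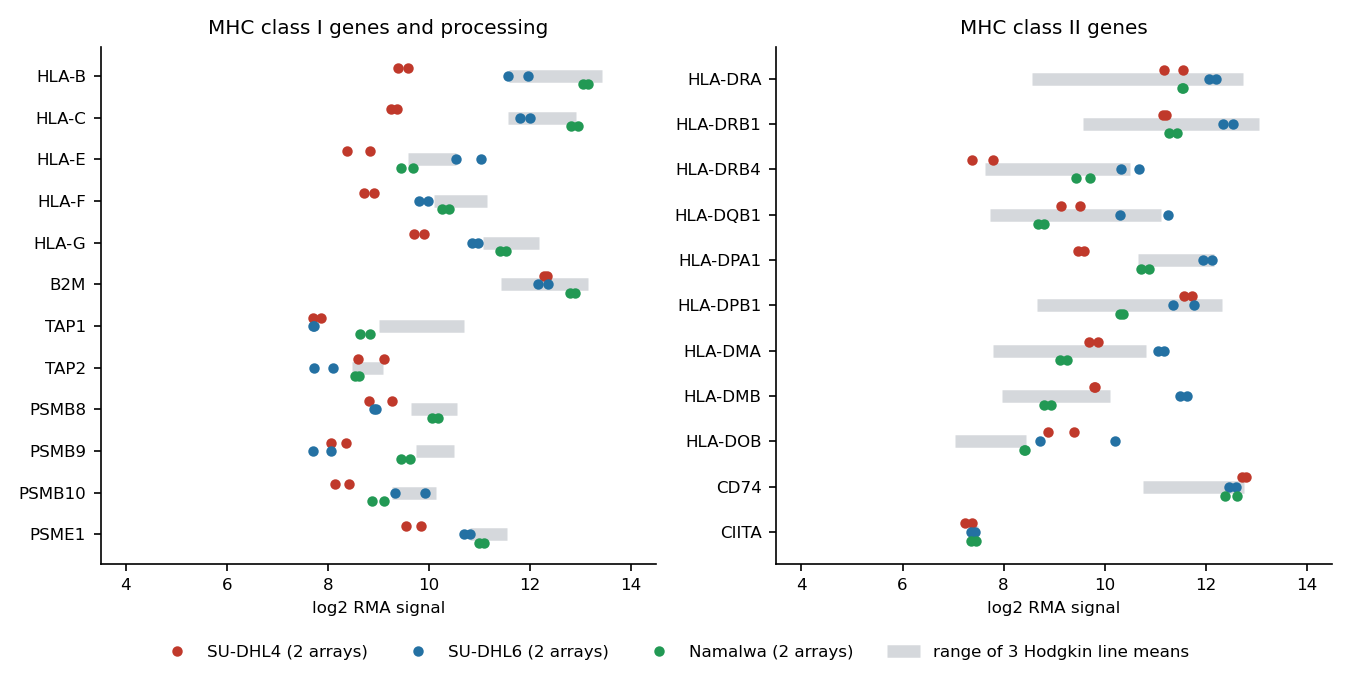
Log2 RMA signal (horizontal axis) on each array for 12 genes of MHC class I and its peptide supply (left) and 11 MHC class II genes (right), with a grey bar for the range of the 3 Hodgkin line means. HLA-B and HLA-C of SU-DHL4 lie left of all other points and of the grey bar, while B2M lies together with the other lines.

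MHC class II, which presents peptides taken up from outside, had few called members against the mean, though more of its genes were lower than higher. Of 16 measured genes, 2 were called lower and 0 higher (median -0.23), and these counts were the same without SU-DHL6 replicate 2. At an unadjusted p under 0.05, 1 was higher and 7 lower (6.25% and 43.8%, beside 13.0% and 15.8% of all genes). HLA-DPA1 had 9.60 and 9.48 in SU-DHL4, against 12.12 and 11.95 in SU-DHL6 and 10.71 and 10.87 in Namalwa (-1.87 ± 0.10, adjusted p = 3.42e-06). HLA-DRB4, a gene that only some people carry, had 7.79 and 7.38 in SU-DHL4, against 10.32 and 10.67 in SU-DHL6 and 9.43 and 9.71 in Namalwa, on 1 of 3 probe sets, and with these averaged the difference was -0.87 in place of -2.45. HLA-DRA, the alpha chain of HLA-DR, was at 11.56 and 11.18 in SU-DHL4, against 12.07 and 12.21 in SU-DHL6 and 11.56 and 11.54 in Namalwa (-0.47, adjusted p = 0.0731). CIITA, the master regulator of class II, was at 7.38 and 7.24 in SU-DHL4 and 7.36 to 7.45 in the other B-cell lines. The Hodgkin line means were alike at 7.39 to 7.49, and none of its 3 probe sets was called. A probe set so level in every line may not report its transcript, so equal expression of CIITA was not shown. Against SU-DHL6 alone 6 members were lower and 0 higher, and against Namalwa 1 was higher and 2 lower, so much of the class II gap was to SU-DHL6.

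Interferon-response genes split by line. Of 32 measured, 6 were lower against the mean and 0 higher (median -0.19). At an unadjusted p under 0.05, 3 were higher and 13 lower (9.38% and 40.6%, beside 13.0% and 15.8% of all genes). Without SU-DHL6 replicate 2, 5 were called lower against the mean. Against SU-DHL6 alone 4 were higher and 2 lower, and against Namalwa 0 were higher and 9 lower, where line and dataset cannot be told apart. MX1, an antiviral GTPase, had 6.08 and 5.89 in SU-DHL4 and 6.30 and 6.25 in SU-DHL6, against 9.19 and 8.92 in Namalwa. IRF7, the amplifier of the interferon response, was the only member to stand apart, with 6.38 and 5.63 in SU-DHL4, against 7.63 and 8.27 in SU-DHL6 and 7.20 and 7.27 in Namalwa (-1.59 ± 0.21, adjusted p = 0.000722). IFI16, a sensor of DNA, had 9.61 and 9.83 in SU-DHL4, against 10.37 and 10.60 in SU-DHL6 and 11.45 and 11.24 in Namalwa (-1.20, adjusted p = 0.000194). Standing apart was lost for IRF7 without SU-DHL4 replicate 2 and with the B-cell arrays alone (adjusted p 0.00218 to 0.0644).

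Of 26 genes of the JAK-STAT pathway, 1 was higher and 4 were lower against the mean (median -0.08), and without SU-DHL6 replicate 2 the counts were 1 and 2. STAT5B, a transducer of cytokine signals, had 9.30 and 9.26 in SU-DHL4, against 7.88 and 7.87 in SU-DHL6 and 8.29 and 8.32 in Namalwa (1.19 ± 0.10, adjusted p = 4.31e-05), and 3 of 3 probe sets were called. Its gap from Namalwa, 0.98, fell just short of the size needed to stand apart. IL10RA, a receptor chain for interleukin-10, had 6.75 and 7.02 in SU-DHL4, against 9.11 and 9.04 in SU-DHL6 and 7.53 and 7.57 in Namalwa (-1.43, adjusted p = 0.00122). IL2RG, the common gamma chain of cytokine receptors, had 8.87 and 8.50 in SU-DHL4, against 9.99 and 10.58 in SU-DHL6 and 9.50 and 9.23 in Namalwa, and lost its call without SU-DHL4 replicate 2 or SU-DHL6 replicate 2 (adjusted p 0.000148 to 0.0246, the gap being under 1). JAK1, named here after its values were seen, was at 7.28 and 7.66 in SU-DHL4 and 7.48 and 8.37 in SU-DHL6, against 9.15 and 8.96 in Namalwa.

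**Figure D4:**
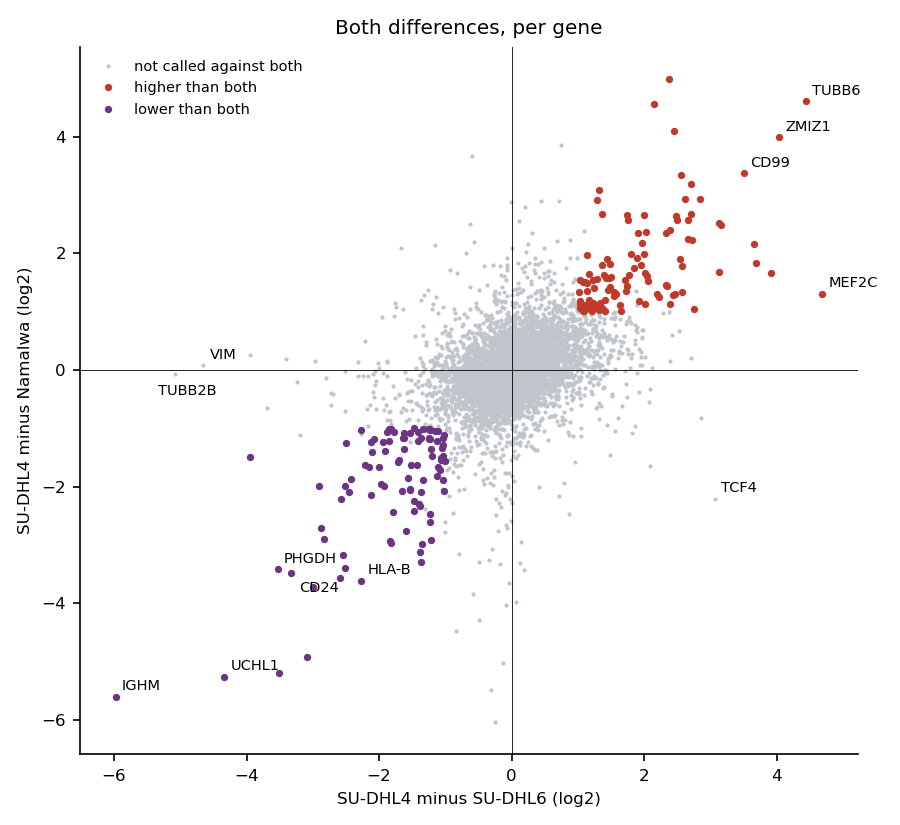
For each gene, the log2 difference SU-DHL4 minus SU-DHL6 (horizontal axis) and SU-DHL4 minus Namalwa (vertical axis), which share the SU-DHL4 arrays. Red points are 108 genes called higher than both lines, purple points 96 genes called lower than both, and grey points all others, and XIST and genes of the Y chromosome are left out. TUBB2B and VIM lie near 0 on the vertical axis and far left on the horizontal one.

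Against SU-DHL6, which shares the dataset, the largest rises outside the 12 highest genes were those of MEF2C, LRIG1, FAIM, ITGB1, RAB11FIP1 and TCF4. LRIG1, a brake on growth factor receptors, had 9.05 and 9.17 in SU-DHL4, against 5.02 and 5.39 in SU-DHL6 and 7.63 and 7.27 in Namalwa (3.91 over SU-DHL6, adjusted p = 4.11e-07). FAIM, an inhibitor of death-receptor apoptosis, had 8.06 and 8.39 in SU-DHL4, against 4.55 and 4.52 in SU-DHL6 and 6.51 and 6.26 in Namalwa (3.69, adjusted p = 3.22e-06). TCF4, an E protein, had 8.33 and 8.56 in SU-DHL4, against 5.36 and 5.38 in SU-DHL6 and 10.65 and 10.66 in Namalwa, so SU-DHL4 lay between the other lines and without overlap with either. RAB11FIP1, of endosome recycling, had 7.99 and 8.56 in SU-DHL4, against 4.68 and 5.63 in SU-DHL6 and 6.94 and 6.24 in Namalwa (3.12, adjusted p = 0.000157). ITGB1, the integrin beta-1 chain, had 9.96 and 10.35 in SU-DHL4, against 5.82 and 7.15 in SU-DHL6 and 7.96 and 8.03 in Namalwa, but only 1 of its 5 probe sets was called, and averaged over them the difference from the mean was 0.63.

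Outside the 12 lowest genes, the largest falls against SU-DHL6 were for TUBB2B, VIM, LTB, CUX2, STAG3 and CHI3L2. Apart from LTB, none of these was called against Namalwa. VIM, the intermediate filament vimentin, had 6.61 and 6.75 in SU-DHL4, against 10.96 and 11.70 in SU-DHL6 and 6.90 and 6.31 in Namalwa. The difference was -4.65 from SU-DHL6 (adjusted p = 5.06e-06) and 0.08 from Namalwa (adjusted p = 0.941), and the Hodgkin lines lay at 12.02 to 13.11. TUBB2B, a beta-tubulin, had 5.29 and 5.28 in SU-DHL4, against 10.72 and 10.00 in SU-DHL6 and 5.38 and 5.32 in Namalwa (-5.08 against SU-DHL6, adjusted p = 8.2e-06). CUX2, a homeobox factor, had 5.25 and 4.88 in SU-DHL4, against 8.61 and 9.41 in SU-DHL6 and 4.78 and 4.83 in Namalwa. STAG3, a meiotic cohesin subunit, had 6.33 and 6.32 in SU-DHL4, against 9.50 and 10.54 in SU-DHL6 and 7.12 and 6.83 in Namalwa. CHI3L2, a chitinase-like protein, had 7.01 and 7.31 in SU-DHL4, against 9.85 and 11.29 in SU-DHL6 and 7.0 and 6.95 in Namalwa.

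The cytoskeletal lists had medians near 0. Of 38 tubulins and microtubule proteins, 2 were higher and 4 lower against the mean (median -0.03), beside 1.89% and 1.87% of all genes. Of 39 genes of the actin cytoskeleton 0 were higher and 2 lower (median 0.06). At an unadjusted p under 0.05, 10 tubulin-list genes were higher and 10 lower (26.3% each, beside 13.0% and 15.8% of all genes). Of the actin genes 11 were higher and 5 lower at that level. The counts of called members in both lists were the same without SU-DHL6 replicate 2. TUBB6 was high while its relative TUBB2A was called lower against the mean. TUBB2A had 8.16 and 8.11 in SU-DHL4, against 11.09 and 10.21 in SU-DHL6 and 8.77 and 8.92 in Namalwa. TUBB2A and TUBB2B are near-identical in sequence, and their probe sets may read each other. DYNLT1, a light chain of dynein, had 7.49 and 7.69 in SU-DHL4, against 8.98 and 9.24 in SU-DHL6 and 9.18 and 9.26 in Namalwa (-1.57 ± 0.14, adjusted p = 6.76e-05). EZR, the ezrin that ties actin to the membrane, had 9.59 and 9.57 in SU-DHL4 and 10.53 to 10.79 in the other B-cell lines (-1.10, adjusted p = 0.000183), on 2 of 5 probe sets, and the call was lost with these averaged (-0.77). MAPRE2, a microtubule-end protein named here after its values were seen, had 10.38 and 10.59 in SU-DHL4, against 8.48 and 9.02 in SU-DHL6 and 9.01 and 9.24 in Namalwa (1.54, adjusted p = 0.000139).

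Adhesion and surface glycoproteins held the most called members of the lists with neither direction prevailing. Of 38 measured, 5 were higher and 7 lower against the mean (median -0.08), and 4 higher and 5 lower stood apart, with 4 and 2 doing so without SU-DHL6 replicate 2. Against SU-DHL6 alone 5 were higher and 7 lower. THY1, a glycoprotein of T cells, neurons and fibroblasts, had 9.25 and 9.07 in SU-DHL4, against 7.20 and 7.17 in SU-DHL6 and 7.03 and 6.93 in Namalwa (2.07 ± 0.09, adjusted p = 1.01e-06), and 3 of 3 probe sets were called. Members named here after their values were seen included ITGB2 and CD58. ITGB2, the leukocyte integrin chain CD18, had 8.07 and 7.89 in SU-DHL4, against 6.11 and 6.94 in SU-DHL6 and 6.57 and 6.65 in Namalwa (1.42, adjusted p = 0.00196). CD58, the ligand of CD2 on T cells and natural killer cells, had 5.91 and 5.55 in SU-DHL4, against 6.71 and 6.86 in SU-DHL6 and 7.37 and 7.18 in Namalwa (-1.30, adjusted p = 0.000116), with the Hodgkin lines at 7.74 to 10.37.

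Of 26 costimulatory and TNF-family genes, 1 was higher (LY9) and 3 lower (LTB, CD70 and SLAMF1) against the mean (median -0.12), and without SU-DHL6 replicate 2 the counts were 2 and 3. CD70, the ligand of CD27, had 7.84 and 7.74 in SU-DHL4, against 8.53 and 8.94 in SU-DHL6 and 10.00 and 9.89 in Namalwa (-1.55, adjusted p = 2.77e-05). SLAMF1, a receptor of lymphocyte contact, had 6.89 and 6.76 in SU-DHL4, against 8.65 and 8.75 in SU-DHL6 and 7.80 and 7.97 in Namalwa (-1.46, adjusted p = 0.000263). CD40 was at 9.61 and 9.30 in SU-DHL4 and 9.79 to 9.89 in the other B-cell lines and was not called. Of 22 chemokine and trafficking receptors, 1 was higher (GPR18) and 2 were lower (CXCR4 and CCR7), with a median of -0.15. CXCR4, which guides cells within the germinal centre, had 10.28 and 10.27 in SU-DHL4, against 10.69 and 11.43 in SU-DHL6 and 11.92 and 11.89 in Namalwa. Its call (-1.21, adjusted p = 0.0159) was lost without either SU-DHL4 array (adjusted p 0.00273 to 0.105). The calls of GPR18, CCR7 and LY9 were each lost without SU-DHL4 replicate 2 and in at least 2 further alternatives. Against SU-DHL6 alone GPR18 differed by 2.53 (adjusted p = 0.00432), CCR7 by -0.26 (adjusted p = 0.448) and LY9 by 0.90 (adjusted p = 0.0599).

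Few growth and survival genes were called against the mean. MYC had 11.42 and 11.56 in SU-DHL4, against 10.71 and 9.72 in SU-DHL6 and 10.62 and 10.84 in Namalwa, which as a Burkitt line carries a MYC translocation. It was the only call among 20 genes of the MYC network (median 0.00), and the call (1.02, adjusted p = 0.0149) was lost without either SU-DHL4 array, SU-DHL6 replicate 2 or Namalwa replicate 1 and with the B-cell arrays alone (adjusted p 0.000199 to 0.125). Of 35 cell-cycle genes 0 were called higher and 2 lower (median 0.01). At an unadjusted p under 0.05, 9 were higher and 4 lower (25.7% and 11.4%, beside 13.0% and 15.8% of all genes). CCND3, a G1 cyclin that germinal-centre cells use, had 9.34 on both SU-DHL4 arrays, against 10.75 and 11.01 in SU-DHL6 and 11.61 and 11.17 in Namalwa (-1.79 ± 0.14, adjusted p = 3.47e-05). CDKN1A, the cell-cycle inhibitor p21, had 8.19 and 7.53 in SU-DHL4, against 8.93 and 11.66 in SU-DHL6 and 9.68 and 9.86 in Namalwa. The SU-DHL6 duplicates of CDKN1A differed by more than 2 units, and its call was lost without either SU-DHL4 array, either Namalwa array or any array of L1236 or L428, and in 2 other settings (adjusted p 6.26e-05 to 0.244).

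Of 24 apoptosis regulators 0 were called higher and 2 lower (BIK and FAS), with a median of 0.00. Without SU-DHL6 replicate 2, 1 was called higher and 1 lower. At an unadjusted p under 0.05 on all arrays, 3 were higher and 8 lower (12.5% and 33.3%, beside 13.0% and 15.8% of all genes). BIK, a death-promoting BH3 protein, had 7.76 and 7.53 in SU-DHL4, against 9.98 and 7.93 in SU-DHL6 and 9.72 and 10.35 in Namalwa, and lost its call without either SU-DHL4 array or Namalwa replicate 2, with the B-cell arrays alone and with a floor (adjusted p 2.49e-05 to 0.137). FAS was near the threshold (adjusted p = 0.0493) and lost its call in most alternatives (adjusted p 0.00217 to 0.289), and against SU-DHL6 it differed by -0.86 (adjusted p = 0.204). MCL1 was at 10.61 and 10.51 in SU-DHL4 and 10.69 to 11.27 in the other B-cell lines and was not called (-0.40).

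Among 23 enzymes of serine, amino acid and one-carbon metabolism, 2 were higher and 1 lower (median -0.09), also without SU-DHL6 replicate 2. Beside PHGDH, these were CBS and BCAT1. CBS, which turns homocysteine into cystathionine with serine as the other substrate, had 7.64 and 8.03 in SU-DHL4, against 6.60 and 6.35 in SU-DHL6 and 6.06 and 6.01 in Namalwa (1.58 ± 0.13, adjusted p = 5.77e-05). BCAT1, a transaminase of branched-chain amino acids, had 10.43 and 9.95 in SU-DHL4, against 8.44 and 8.14 in SU-DHL6 and 9.43 and 9.48 in Namalwa (1.32, adjusted p = 0.000206). Of 30 genes of glycolysis and hypoxia, 1 was higher (HK1) and 1 lower (ALDOC), with a median of -0.10, and without SU-DHL6 replicate 2 the counts were 2 and 1. HK1, a hexokinase, had 10.41 and 10.58 in SU-DHL4, against 9.63 and 10.26 in SU-DHL6 and 8.89 and 8.70 in Namalwa, and lost its call without SU-DHL6 replicate 1. The call of ALDOC, an aldolase, was lost without SU-DHL4 replicate 2 (adjusted p 0.000154 to 0.0656), and against SU-DHL6 it differed by -2.16.

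Beside ZMIZ1, 11 PIAS-like and nuclear receptor coregulators held a single further call, NCOA2, a steroid receptor coactivator (-1.07, adjusted p = 0.00834), which was lost without either SU-DHL4 array or SU-DHL6 replicate 2 and with its probe sets averaged (adjusted p 0.00111 to 0.063), and against SU-DHL6 it differed by -0.67 (adjusted p = 0.106). No gene was called against the mean in limma among 28 chromatin regulators, 16 cancer-testis antigens and 19 ribosomal proteins. At an unadjusted p under 0.05 these lists had 3 higher and 7 lower (10.7% and 25%), 0 higher and 3 lower (0% and 18.8%), and 1 higher and 4 lower members (5.26% and 21.1%). The shares of all genes were 13.0% and 15.8%.

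Markers of other cell types were not called against the mean, apart from DCN and THY1. In the T cell list, LEF1 was called higher against SU-DHL6 (1.18) and LCK higher against Namalwa (1.16). Of 28 T and NK cell, 23 myeloid and dendritic cell and 12 erythroid and platelet markers, 0 were called against the mean in limma, with 2 higher and 3 lower, 1 higher and 1 lower, and 0 and 0 at an unadjusted p under 0.05. Of 23 stromal, endothelial and epithelial markers, 2 were higher, DCN and THY1. Without these genes the mean of the other 21 was 6.08 and 5.99 on the SU-DHL4 arrays, against 6.20 and 6.10 in SU-DHL6 and 6.04 and 6.08 in Namalwa. The list as a whole summed to 147.8 and 145.8 in SU-DHL4, against 145.3 and 143.5 in SU-DHL6 and 142.0 and 142.5 in Namalwa.

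Where the genes lie on the chromosomes was looked at after their values were seen. By the RefSeq gene table, chromosome 6 held 18 of the 96 genes that stood apart as lower, 2.67% of its 673 measured genes, beside 0.805% of all 11931 placed genes, and 6 of these were HLA genes. CD24, IRF4, MARCKS, TNFAIP3, CD83 and LTB were among the others. Chromosome 6 also had the lowest median difference from the mean, -0.13. Its median was -0.15 against SU-DHL6 and -0.06 against Namalwa, where chromosome 1 was lower (-0.08). Chromosome 3 held 18 genes that stood apart as higher, 2.75% of its 655 genes beside 0.905% of all, LRIG1, FAIM, ROBO1 and PAK2 among them. It was not raised throughout, as 32.2% of its genes were higher than in both lines and 36.5% lower, with a median difference of -0.006. Some of its windows of 15 neighbouring genes were lower than in both lines, such as FILIP1L to CBLB (-0.50 against SU-DHL6, -0.35 against Namalwa). These counts carry no test. Over windows of 15 neighbouring measured genes, ranked by whichever of the 2 medians was nearer to 0, the lowest was on chromosome 1, from KMO to AHCTF1, with a median of -0.62 against SU-DHL6 and -0.65 against Namalwa, and 12 of its 15 genes were lower than in both lines. In it KMO, OPN3 and DESI2 stood apart. DESI2 had 8.85 and 9.24 in SU-DHL4, against 10.62 and 11.03 in SU-DHL6 and 10.16 and 10.07 in Namalwa. The highest was on chromosome 3, from TNK2 to RPL35A, with 0.49 against SU-DHL6 and 0.43 against Namalwa, where PAK2, a kinase of the cytoskeleton, had 10.31 and 10.68 in SU-DHL4, against 8.94 and 8.74 in SU-DHL6 and 9.71 and 9.26 in Namalwa. Neighbouring genes that share a copy-number change and genes under shared control cannot be told apart from expression values.

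**Figure D5:**
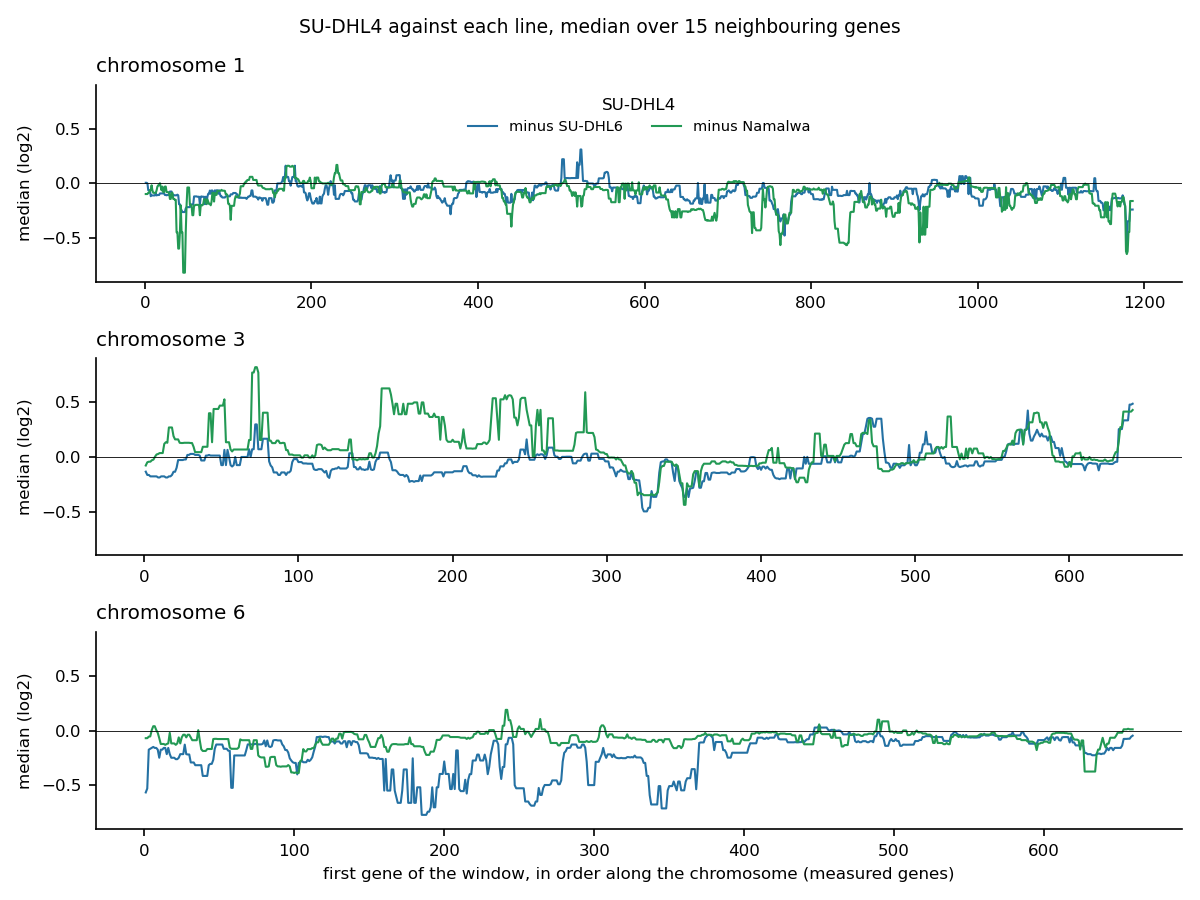
Median log2 difference of SU-DHL4 from SU-DHL6 (blue) and from Namalwa (green) over windows of 15 measured neighbouring genes (vertical axis), by the rank of the first gene along chromosomes 1, 3 and 6 (horizontal axis). Both curves drop together near the far end of chromosome 1 and rise together at the far end of chromosome 3, while the longer dips on chromosome 6 are in the difference from SU-DHL6 and the longer rises on chromosome 3 in that from Namalwa. Chromosome 3 also holds windows below 0 in both curves, such as FILIP1L to CBLB (-0.50 and -0.35).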

How the data were processed

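Total RNA of 6 untreated lymphoma lines, 2 arrays a line, had been hybridised to 12 Affymetrix human genome arrays, and lines were taken from the array titles. The deposited values are log2 signals that the authors normalised with RMA in R 2.10.1, per the submitters' processing notes and the design text. No RMA settings are given in these sources. A deposited table of the authors' own Hodgkin comparison was not used here. RMA quantile normalization gives the arrays 1 common distribution, so a global shift between lines would not be seen. No detection calls were given, and the number of arrays limits precision.

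Of 22283 probe sets, 68 controls were left out. The platform annotation named a single gene for 19065 probe sets and several for 1043, left 2107 unnamed, and 19053 matched the RefSeq gene table of GRCh38.p14. A gene was represented by its single-symbol probe set of highest mean signal across all arrays (11963 genes). All 12 arrays entered 1 limma fit (R 4.3.3, limma 3.58.1) with a coefficient per line and empirical Bayes moderation, two-sided, adjusted by Benjamini-Hochberg over all probe sets. No source used here says whether duplicates were separate cultures. The fit was tested on simulated data before use. All adjusted p-values in the text come from limma.

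The lines compared, the markers TUBB6, ZMIZ1 and CD99 and the 31 gene lists, with 786 distinct genes of which 678 were measured, were chosen with earlier results of these data known. Genes were named by rule: the 12 highest and 12 lowest that stood apart, ranked by the smaller of the 2 single-line differences, the next 6 up and 6 down against SU-DHL6, up to 4 called members of a list, and a set of B-cell genes whatever their values. XIST and Y-linked genes, 3 of which stood apart, were not named. Alternatives were the B-cell arrays alone, a replicate block, a filter on dim probe sets, a floor, an intensity trend, median centring, repeated quantile normalization, array weights, a larger minimum difference, the mean over a gene's probe sets and each array left out. Whether equal replicate numbers mark paired arrays could not be settled from the values. Deviations from the line mean correlated at 0.21 between SU-DHL4 and SU-DHL6 and at -0.44 between SU-DHL4 and Namalwa. Between L1236 and L428 they correlated at 0.30. Promoter CpG content was computed but is not reported here, because fewer than 80% of genes had a promoter window.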

Additional observations from a re-analysis of the deposited data

How the results depend on the processing

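Signs were followed for the named genes only. Among the 86 called against the mean and the 49 that stood apart, no difference changed sign under any alternative. Among named genes that were not called against the mean, the differences of BCL2, CXCR5, EZH2, IGHG1 and TCF4 lay on either side of 0 in some. Requiring a log2 difference of at least 1.5 left 175 genes against the mean (82 higher, 93 lower), 262 against SU-DHL6 (140 higher, 122 lower), 255 against Namalwa (119 higher, 136 lower) and 81 that stood apart (46 higher, 35 lower), which follows from the stricter rule. Under the other alternatives every count stayed within 1.5 times its main value. With each array left out in turn, 398 to 492 genes were called against the mean, 579 to 779 against SU-DHL6, 533 to 588 against Namalwa, and 166 to 226 stood apart, the fewest that stood apart without SU-DHL4 replicate 2, where 150 of the 207 remained. With the replicate block the counts were 447, 657, 572 and 205, and with the numbers of Namalwa crossed, chosen after seeing the data, 450, 661, 577 and 208. With the B-cell arrays alone 176 stood apart, all among the 207. Of 86 named genes called against the mean, 62 kept the call under every alternative and 24 lost it under at least 1, and of 49 that stood apart 32 kept it and 17 did not. Averaging all probe sets of a gene ended 16 of these calls, among them those of IRF4, SPTBN1, IGLV1-44, ITGB1 and HLA-DRB4, of which most probe sets were not called.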

Other observations

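Cytosolic aminoacyl-tRNA synthetases, the enzymes that charge transfer RNAs with amino acids, were looked at after their values were seen and belong to no list. Of 16 measured, 11 were lower in SU-DHL4 than in both other B-cell lines, as were 44.0% of all genes, and the median difference from the mean was -0.16. AARS1, for alanine, averaged 9.39 in SU-DHL4, against 10.9 in SU-DHL6 and 10.4 in Namalwa (-1.23, limma adjusted p = 6.7e-05). CARS1, for cysteine, averaged 9.25 in SU-DHL4, against 10.5 in SU-DHL6 and 10.3 in Namalwa (-1.13, adjusted p = 9.89e-06). The other 14 were not called.

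Some genes outside the naming rule also stood apart and were picked after their values were seen. TOX, a nuclear factor known from T-cell development, had 8.61 and 8.79 in SU-DHL4, against 6.04 and 7.06 in SU-DHL6 and 3.88 and 4.40 in Namalwa. TSPAN13, a tetraspanin, had 10.36 and 10.28 in SU-DHL4, against 7.25 and 8.49 in SU-DHL6 and 6.26 and 6.18 in Namalwa. EYA2, a phosphatase and transcriptional cofactor of development, had 8.49 and 8.80 in SU-DHL4, against 6.32 and 6.18 in SU-DHL6 and 6.06 and 6.44 in Namalwa. SPP1, the secreted protein osteopontin, had 6.85 and 8.27 in SU-DHL4, against 5.03 and 5.12 in SU-DHL6 and 4.94 and 4.89 in Namalwa, so its SU-DHL4 arrays differed by more than 1 unit.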
